A study of Mus musculus with 10 samples.

Results

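The aminoacyl-tRNA synthetases are the enzymes that join each amino acid to its tRNA, the first committed step of translation. Their transcripts were followed here in CD117+ splenocytes before and during culture with lipopolysaccharide (LPS), a bacterial product that engages toll-like receptor 4. The members were 20 listed genes for cytosolic synthetases and 16 for mitochondrial ones, which carry the suffix 2 in their symbols. Each gene was read from its brightest probe set that carries no other gene symbol. This gave 34 of the 36 genes, all 16 mitochondrial and 18 of 20 cytosolic ones, out of 25648 genes with such a probe set on the array. Wars and Kars had only probe sets that they share with another symbol, and their values are given apart from the rest.

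Cytosolic synthetases charge tRNAs for the ribosomes that translate nuclear transcripts, and 8 of the listed ones belong to the multi-synthetase complex, which the scaffold proteins AIMP1, AIMP2 and EEF1E1 (also known as AIMP3) hold together. Mitochondrial synthetases are encoded in the nucleus, are imported, and serve the small set of proteins translated inside mitochondria. Gars and Kars each supply both compartments from 1 gene. Many cytosolic synthetase genes are known targets of ATF4, the transcription factor of the amino acid response, and Wars is a known target of IFN-γ.

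The arrays held RNA of CD117+ splenocytes obtained by positive selection from 5 male WT C57BL/6 mice and 5 male RasGRP4-null mice (RasGRP4 KO in the labels) on the C57BL/6 background, all 9 to 12 weeks old. RasGRP4 is a guanine nucleotide exchange factor that activates Ras in mast cells. There was 1 array for each genotype at 0 h without LPS and at 12, 24, 36 and 48 h in 1 µg/ml LPS, 10 arrays in all, and there was no LPS-free culture to match the later time points. The effects of LPS and of culture cannot be told apart, and the labels do not say whether the mice of a genotype were pooled. The study's methods describe the selected cells as rich in dendritic cells. Time points follow the array titles. For 3 RasGRP4-null arrays titled 24, 36 and 48 h the source name states 12, 24 and 36 h, and the series' design text has 6 h and no 36 h.

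Values are PLIER intensities, the probe set summaries computed by the authors. A level counted as background up to the 95th percentile of the 1089 probe sets for olfactory receptors, which was 29.1 to 38.5 depending on the array. Changes are on the scale log2(PLIER + 16), which understates the change of dim genes. They were tested with limma over 11178 genes, with additive terms for genotype and for time, so that the 2 genotypes supply the spread at each time. The time points of a genotype may come from the same cells, and p-values describe these preparations. A gene was called at an adjusted p below 0.05.

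The cells before and after LPS were not alike in other genes. The summed intensity of 9 macrophage and monocyte markers was 17756 to 18736 at 0 h and 506 to 906 in LPS, and that of 7 neutrophil markers 4817 to 8049 and 98.7 to 743. For 6 dendritic cell markers the sums were 1210.1 to 1314 and 398 to 636, and for 13 proliferation genes 1611 to 1647 and 3087 to 7216. The sums of 6 B cell markers, 5219 to 5789 and 2859 to 6653, overlapped, as did those of 6 plasma cell markers, 3197 to 4247 and 2567 to 5313. Those of NK and mast cell markers overlapped too, and those of T cells and red cell precursors were lower in LPS. Kit, which encodes CD117, read 292 (WT) and 287 (RasGRP4-null) at 0 h and 133 to 334 in LPS. Rasgrp4 read 86.4 in WT cells at 0 h and was at background on the other 9 arrays, so that the labels of the genotypes could be checked at 0 h alone. The part of these differences in the changes of the synthetases was not tested. In such bulk samples fewer cells of a type and less RNA per cell cannot be told apart.

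On the PLIER scale nearly all cytosolic synthetases had more transcript in LPS than before it, and the mitochondrial enzymes had smaller changes, whose sign depended on the scale. Of 18 cytosolic members 17 rose on the PLIER scale and none fell (median log2 change 1.65, from -0.29 to 2.55), whereas after normalization to Gapdh 10 rose and 2 fell. Of the 14 mitochondrial members bright enough to be tested 13 rose on the PLIER scale and none fell (median 0.57, from 0.10 to 1.17), whereas after normalization to Gapdh none rose and 6 fell. A gene was tested if it reached a PLIER intensity of 50 on 2 or more arrays. Aars2, Ears2, Mars2 and Nars2 were below 50 on both 0 h arrays, so that this filter favoured their rises. With the filter left out 14 of all 16 mitochondrial members rose on the PLIER scale and none fell, with a median of 0.03 over all genes. Those 16 include Wars2 and Pars2, which the filter had left out as too dim. Vars2 lost its call in that setting (adjusted p = 0.0505). Over all genes tested 48.2% rose and 21.5% fell on the PLIER scale, with a median of 0.26, and 8.54% rose and 69.1% fell after normalization to Gapdh. The 6 mitochondrial members that fell on the latter scale were thus a smaller share (42.9%) than that of all genes. A rise of 1 or more on the log2 scale was found for 13 of 18 cytosolic members, for 1 of 14 mitochondrial members (Rars2) and for 14.2% of all genes. A rise of 2 or more was found for 5 cytosolic members (Iars, Cars, Yars, Tars and Eprs), for no mitochondrial member and for 1.9% of all genes.

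The choice of scale mattered because the Gapdh transcript itself was lower at 0 h. Its PLIER intensity was 1633 (WT) and 1487 (RasGRP4-null) at 0 h and 2815 to 3893 in LPS. Dividing by it moved the median change of all genes from 0.26 to -0.70. Of 10 other reference genes tested, 4 rose and 1 fell on the PLIER scale (median 0.26). After normalization to Gapdh 0 of them rose and 8 fell (median -0.80). Which scale is nearer to the amount of transcript per cell was not tested. Relative to the median of all genes the cytosolic members stood 1.35 higher and the mitochondrial members 0.43 higher on the GAPDH-normalized scale. The sign of the mitochondrial median differed between the scales (0.57 against -0.27). The order of the classes was the same on both, which is no independent check of that order. Normalization to Gapdh multiplies all genes of an array by the same factor. Apart from the constant added before taking log2 and from rounding, it shifts both classes alike.

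**Figure D1:**
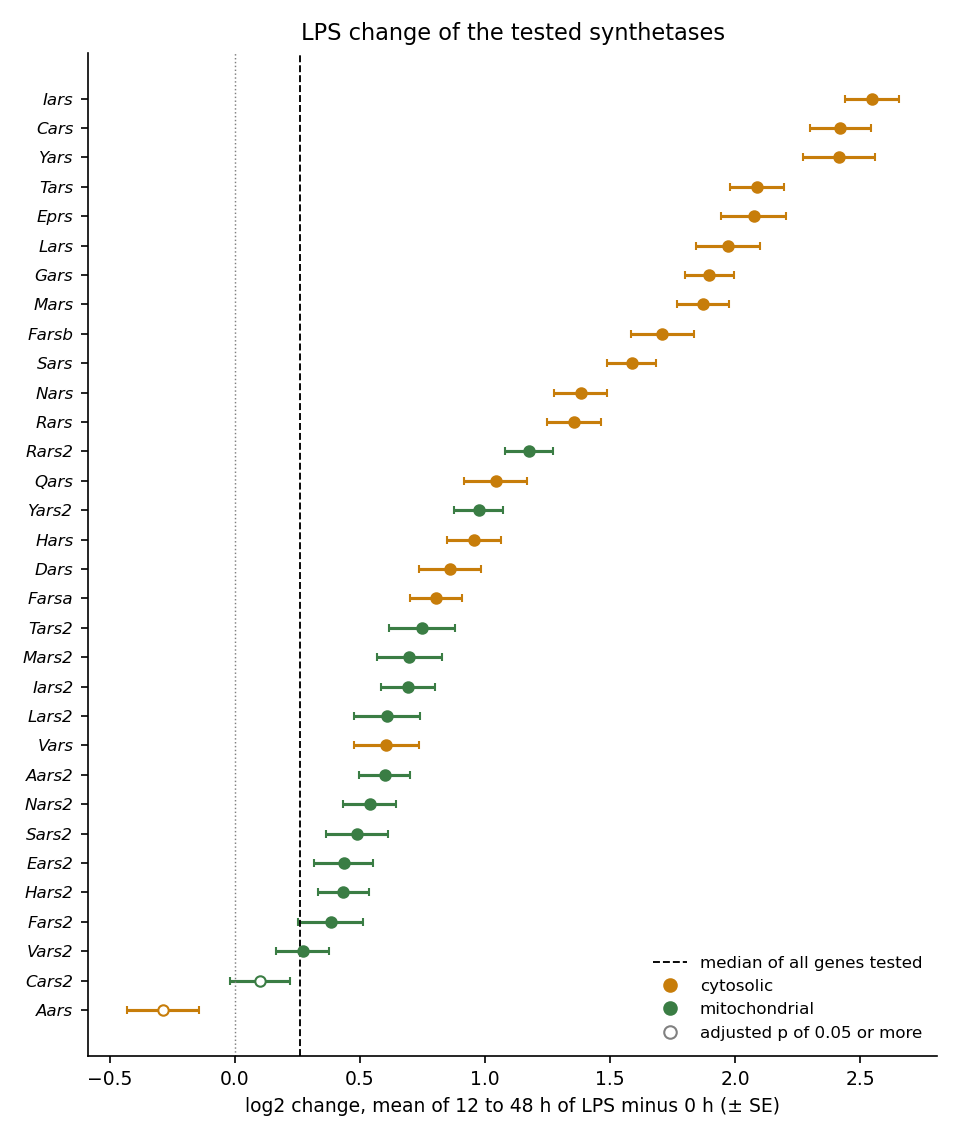
LPS change of the 32 tested synthetases on the PLIER scale (log2 change, mean of 12 to 48 h minus 0 h, bars are standard errors), cytosolic in orange and mitochondrial in green, open where the adjusted p was 0.05 or more. Iars (2.55), Cars (2.42) and Yars (2.41) lead, Cars2 (0.10) and Aars (-0.29) close the order, and the dashed line is the median of all genes (0.26); after normalization to Gapdh the mitochondrial median turns to -0.27.

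Iars, the isoleucyl-tRNA synthetase, had the largest rise of the tested members. In WT cells its PLIER intensity was 216 before LPS and 1257, 1077, 1422 and 1355 at 12, 24, 36 and 48 h. The RasGRP4-null values were 184 before LPS and then 1150.0, 1167, 1200.4 and 1347. Every LPS array was above both 0 h arrays, and the highest was 6.59 times the 0 h level in WT and 7.33 times in RasGRP4-null cells. The fitted log2 change was 2.55 (SE 0.108, adjusted p = 7.23e-09).

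Cars, which charges cysteine, was dim at 0 h and brighter on all 8 LPS arrays. WT cells had 60.9 before LPS and 378, 287, 368 and 332 afterwards. RasGRP4-null cells had 42.9 before LPS and 355, 334, 377 and 334 afterwards. The levels in LPS were flat over time, with a late minus early difference of 0.06 (SE 0.108, adjusted p = 0.739). The log2 change from 0 h was 2.42 (SE 0.121, adjusted p = 2.69e-08).

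Yars, the tyrosyl-tRNA synthetase, rose from 65.6 to 513, 421, 592 and 510.4 in WT cells, while the RasGRP4-null level went from 96.7 to 381, 455, 573 and 553. As a ratio the 0 h levels of the genotypes differed more than their levels at 36 h, where both were highest. The highest fold over 0 h was thus 9.04 for WT cells and 5.92 for RasGRP4-null cells. The log2 change was 2.41 (SE 0.144, adjusted p = 1.13e-07), and its difference between the genotypes was not called (-0.53, SE 0.248, adjusted p = 0.675).

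Tars charges threonine. It went from 158 to 820.4, 694, 710.0 and 601 in WT cells and from 148 to 744, 657, 723 and 700.1 in RasGRP4-null cells. The 2 genotypes were close at each time point, and the change was 2.09 (SE 0.107, adjusted p = 3.31e-08). Neighbours in the order of the 32 members mostly could not be set apart. Only 1 of 31 neighbouring pairs differed by more than 2 standard errors of their difference, and 14 of the 16 largest changes were cytosolic.

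The remaining cytosolic members lay between these and the low end of the class on the PLIER scale. Lars, Gars and Mars, for leucine, glycine and methionine, had changes of 1.97, 1.90 and 1.87. Farsb, a subunit of the phenylalanyl enzyme, followed with 1.71, and Nars and Rars, for asparagine and arginine, with 1.38 and 1.35. Qars, for glutamine, had 1.04 (SE 0.126). All of them rose, and Eprs (2.07), Sars (1.59), Hars (0.96), Dars (0.86) and Farsa (0.80), which also rose, are described with the time course. After normalization to Gapdh Nars (0.34, adjusted p = 0.0563), Rars (0.34, adjusted p = 0.0616) and Qars (0.03, adjusted p = 0.856) lost their calls. Lars, Gars, Mars and Farsb kept theirs on that scale.

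The low end of the cytosolic class was Vars and Aars. Vars, the valyl-tRNA synthetase, read 262 before LPS and 450.1, 363, 475 and 447 afterwards in WT cells, while the RasGRP4-null level was 289 and then 345, 460.1, 479 and 419. It rose on the PLIER scale (0.60, SE 0.130, adjusted p = 0.0016), with all LPS arrays above both 0 h arrays, and fell after normalization to Gapdh (-0.43, adjusted p = 0.0116). The groups did not overlap for 17 of 18 cytosolic and 12 of 14 tested mitochondrial members, against 41.6% of all genes with every LPS array above both 0 h arrays. Among these 12 are Aars2, Ears2, Mars2 and Nars2, which passed the filter only through LPS arrays.

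Aars, the alanyl-tRNA synthetase, was the only cytosolic member that the test did not call. Its probe set read 356 before LPS and 216, 298, 216 and 204 afterwards in WT cells, and 229 and then 249, 249.95, 203 and 228 in RasGRP4-null cells. The levels overlapped between 0 h and LPS in RasGRP4-null cells, and the change of -0.29 (SE 0.145, adjusted p = 0.0965) became 0.01 without the WT array of 0 h and -0.59 (adjusted p = 0.0107) without the RasGRP4-null one. This probe set is in doubt as a measure of the Aars transcript. Probe set numbers on this array follow chromosome and strand, and of its 20 nearest numbered neighbours 19 belong to genes on the minus strand, while Aars lies on the plus strand. A second probe set, which also carries the symbol Exosc6, has 19 of 20 neighbours on the plus strand and behaved differently.

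On the probe set shared by Aars and Exosc6, a subunit of the RNA exosome, WT cells had 75.4 before LPS and 409, 305, 430.4 and 493 afterwards. RasGRP4-null cells had 62.3 and then 415, 347, 372 and 408. Every LPS level was at least 305 and both 0 h levels were below 76, and the change was 2.28 (SE 0.115, adjusted p = 2.96e-08). Which of the genes gave this signal was not tested.

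Wars, the tryptophanyl-tRNA synthetase, could be read only from a probe set shared with LOC101056688, and this probe set had the largest change of all those examined for synthetases. WT cells had 92.9 before LPS and 653, 476, 1331 and 1777 afterwards. RasGRP4-null cells had 89.6 before LPS and 546, 517, 681 and 1264 afterwards. The level was highest at 48 h in both genotypes, 19.1 times the 0 h level in WT and 14.1 times in RasGRP4-null cells. The change was 2.94 (SE 0.170, adjusted p = 8.69e-08) from 0 h and 1.11 (SE 0.152, adjusted p = 5.46e-04) from 12 and 24 h to 36 and 48 h. By the array titles RasGRP4-null cells had a lower level at 36 and 48 h, but neither the genotype difference (-0.32, adjusted p = 0.489) nor the interaction with LPS (-0.35, adjusted p = 0.91) was called. By their source names the RasGRP4-null arrays with 681 and 1264 are of 24 and 36 h, when WT cells had 476 and 1331.

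Kars, the lysyl-tRNA synthetase, shared its probe set with LOC631033. It rose from 233 to 879.5, 717, 569 and 506 in WT cells and from 244 to 674, 699, 624 and 516 in RasGRP4-null cells. The change from 0 h was 1.37 (SE 0.117, adjusted p = 1.77e-06), and unlike that of Wars it was smaller late than early (-0.41, SE 0.105, adjusted p = 0.0146). These fits with shared probe sets were added after the data had been seen.

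**Figure D2:**
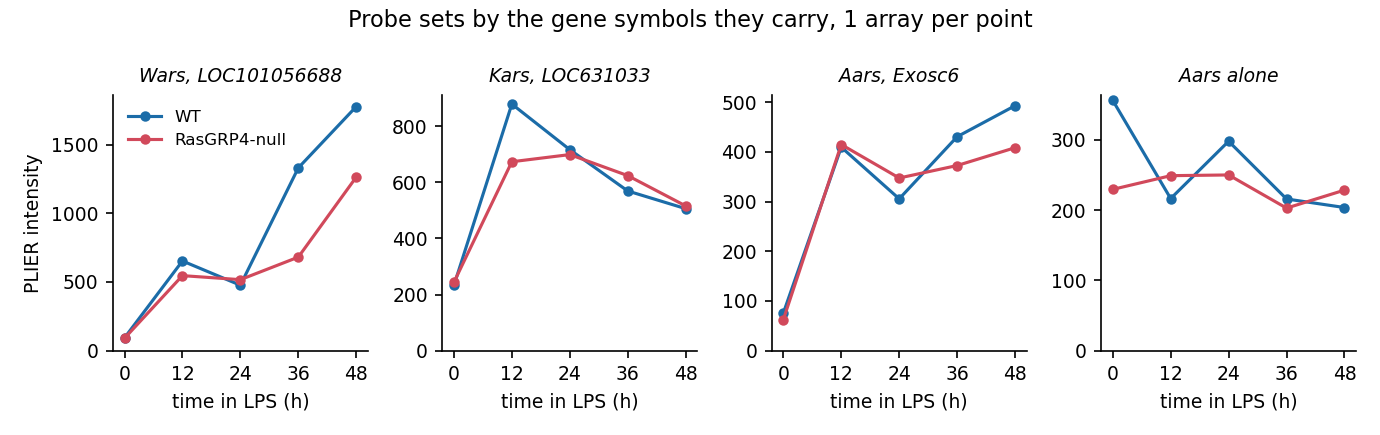
PLIER intensity by hour in LPS for the probe sets of Wars, Kars and Aars that carry a second symbol and for the one that carries Aars alone, 1 array per point, WT in blue and RasGRP4-null in red. Wars reaches 1777 (WT) and 1264 (RasGRP4-null) at 48 h, and the Aars probe sets run in unlike ways, from 75.4 to 493 and from 356 to 204 in WT cells.

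Promoter sequence was compared for a motif of the amino acid response, because many cytosolic synthetase genes are known targets of ATF4. Promoters are RefSeq sequences on GRCm38.p6 from 250 bases before to 50 bases after each gene's start, and 13 of 20 cytosolic and 14 of 16 mitochondrial members had an entry. The motif TGATGNAAN, the C/EBP-ATF response element that ATF4 binds together with a C/EBP protein, was searched on both strands. It lay in 5 of 13 cytosolic promoters (38.46%), in 0 of 14 mitochondrial ones, in 3.19% of the promoters of 8239 tested genes with an entry, and in 4.5% of 27025 genes in the table. The windows follow on the strand of each gene, with the motif in capitals, 5′ to 3′, since they show how near the matches lie to the start of transcription. In Yars and Asns the motif reads as spelled above, and in the others as its reverse complement.
Aars, chr8:111033840-111033868, plus strand: agcgggtcacTTTTCATCAgagcgctctg
Gars, chr6:55037960-55037988, plus strand: tggctgcgctATTTCATCAtgcaccgggc
Iars, chr13:49682126-49682154, plus strand: cactgtcagtATTGCATCAcctccagacg
Tars, chr15:11399656-11399684, minus strand: caggagtcccGTTGCATCAgctggttagc
Yars, chr4:129189896-129189924, plus strand: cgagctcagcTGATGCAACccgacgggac
Asns, chr6:7693214-7693242, minus strand: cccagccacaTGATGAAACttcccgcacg

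The match began 31 bases before the start in Gars, 16 before it in Tars and 23 before it in Asns, and 6 bases after it in Iars and 3 after it in Yars. The match shown for Aars began 8 bases after its start. Of the 5 cytosolic genes with a match, Iars, Yars and Tars were among the 4 with the largest LPS changes, Gars changed by 1.90 (adjusted p = 3.63e-08), and Aars gave the discordant probe sets described above. Eprs (2.07), Mars (1.87), Farsb (1.71) and Sars (1.59) had an entry and no match, and Cars, Lars and Wars had no entry. The E-box CACGTG lay in 4 of 13 cytosolic (30.77%) and 1 of 14 mitochondrial promoters (7.14%), against 11.68% of tested genes. The interferon-stimulated response element lay in 1 of 13 and 0 of 14 (3.93% of tested genes). A match is a stretch of letters and not a measured binding site.

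The mitochondrial class was dimmer. Of its 16 members 11 were above background on all 10 arrays, against 18 of 18 cytosolic ones. Rars2, which charges arginine in mitochondria, rose most. It went from 57.5 to 189, 151, 138 and 126 in WT cells and from 53.1 to 177, 142, 126 and 122 in RasGRP4-null cells. All LPS arrays were more than 120 and both 0 h arrays under 58, with a change of 1.17 (SE 0.096, adjusted p = 1.30e-06) that was 0.29 (adjusted p = 0.0844) after normalization to Gapdh.

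Yars2, the mitochondrial tyrosyl-tRNA synthetase, had a peak at 12 h in both genotypes. WT cells had 58.5 before LPS and 197, 143, 109 and 97.5 afterwards. RasGRP4-null cells had 66.1 and then 206, 166, 116 and 105. The level fell at each later time point and stayed above both 0 h arrays, with a mean change of 0.97 (SE 0.098, adjusted p = 6.05e-06) that was 0.07 (adjusted p = 0.664) after normalization to Gapdh.

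Tars2, for mitochondrial threonine, read 87.5 before LPS and 188, 173, 168 and 168 afterwards in WT cells, and 96.7 and then 124, 181, 172 and 159 in RasGRP4-null cells. The change was 0.75 (SE 0.132, adjusted p = 4.00e-04), against -0.21 (adjusted p = 0.192) after normalization to Gapdh. Mars2, for mitochondrial methionine, was not above background on either 0 h array (20.8 and 19.3). In LPS it read 54.0, 38.8, 36.4 and 39.9 in WT cells and 46.2, 52.9, 44.9 and 30.2 in RasGRP4-null cells. Its mean rise over the LPS arrays (fitted change 0.70, adjusted p = 5.85e-04) was thus at least 1.22-fold, measured against the background level at 0 h. With Mars2 at this bound the mitochondrial median was 0.51.

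Cars2 and Vars2 changed least among the tested mitochondrial members. Cars2, for cysteine, read 88.6 before LPS and 103, 101, 95.3 and 92.7 afterwards in WT cells, and 98.8 and then 89.2, 102, 132 and 101 in RasGRP4-null cells. The groups overlapped and the change of 0.10 (SE 0.120) was not called (adjusted p = 0.485). Vars2, for valine, read 52.2 before LPS and 81.9, 67.9, 61.1 and 72.6 afterwards in WT cells, and 56.2 and then 68.6, 74.5, 58.6 and 66.1 in RasGRP4-null cells. Its change of 0.27 (SE 0.106, adjusted p = 0.0398) lost its call when any of 8 of the 10 arrays was left out (adjusted p up to 0.286, the arrays of 24 h in WT and 12 h in RasGRP4-null cells being the exceptions). Without the RasGRP4-null 0 h array the calls of Ears2 (0.26, adjusted p = 0.173) and Hars2 (0.36, adjusted p = 0.0586), for glutamate and histidine, were lost as well. That of Fars2, for phenylalanine, was lost without either 0 h array (0.42 without the WT array and 0.35 without the RasGRP4-null array).

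The other tested mitochondrial members rose by similar small amounts on the PLIER scale, and each was below 0 after normalization to Gapdh. Iars2, Lars2 and Aars2, for isoleucine, leucine and alanine, had PLIER-scale changes of 0.69, 0.61 and 0.60. Nars2 and Sars2, for asparagine and serine, had 0.54 and 0.49, and Ears2, Hars2 and Fars2 had 0.43, 0.43 and 0.38.

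Wars2 and Pars2, for mitochondrial tryptophan and proline, were too dim to be tested. Wars2 read 33.0 before LPS and 49.2, 45.2, 49.7 and 50.4 afterwards in WT cells, and 34.6 and then 44.2, 41.8, 42.3 and 39.5 in RasGRP4-null cells. Its LPS arrays were all above both 0 h arrays, and it was above background on 9 arrays. Pars2 read 25.2 before LPS and 30.2 to 43.8 afterwards in WT cells, and 9.71 and then 26.8 to 34.4 in RasGRP4-null cells, and it was above background on 5 arrays.

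The enzymes for 1 amino acid in the 2 compartments could be set side by side in 14 pairs, in which Fars2 stands against both subunits of the cytosolic phenylalanyl enzyme. In 13 of these pairs the cytosolic gene had the larger change, by a median of 1.14 and by up to 2.32 for cysteine (Cars 2.42, Cars2 0.10). Isoleucine followed with a difference of 1.86 (Iars 2.55, Iars2 0.69) and tyrosine with 1.44. Arginine had the smallest positive difference (0.18), because Rars2 led its class. Alanine ran the other way (-0.89), and that pair rests on the doubtful Aars probe set. Over the classes, the cytosolic median exceeded the mitochondrial one by 1.11 in WT and by 1.03 in RasGRP4-null cells (1.08 in the fit). These differences are descriptions with no test.

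**Figure D3:**
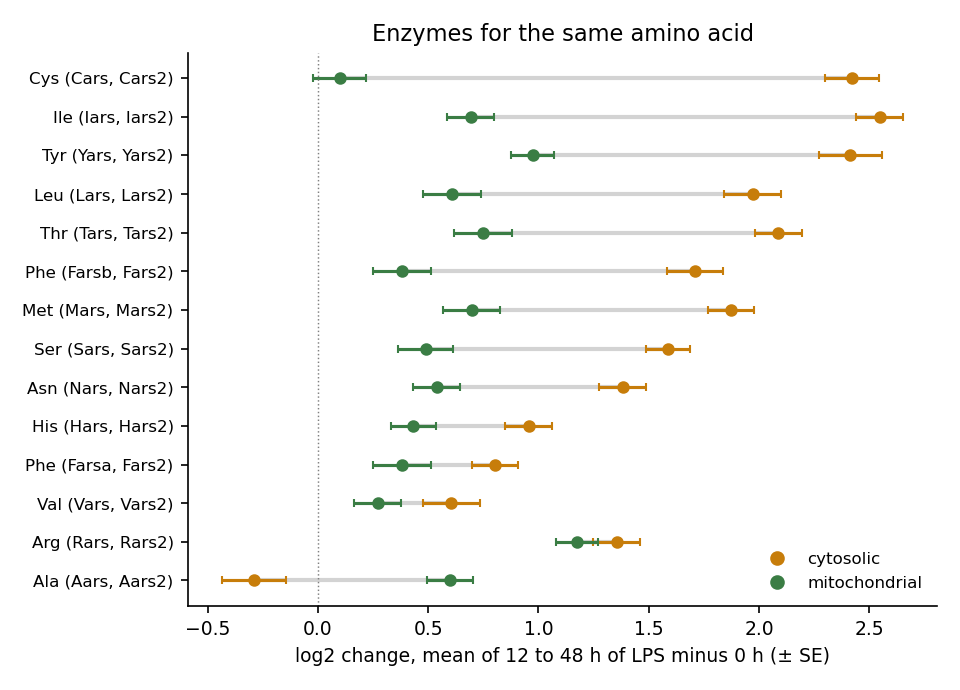
Log2 change (mean of 12 to 48 h minus 0 h, PLIER scale, bars are standard errors) of the cytosolic (orange) and mitochondrial (green) enzyme for the same amino acid. The cytosolic gene has the larger change in 13 of 14 pairs, from 0.18 for Arg to 2.32 for Cys, and Ala is the exception (-0.89); after normalization to Gapdh the mitochondrial median is below 0 (-0.27).

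The class medians over time were computed for each genotype. The median cytosolic change from 0 h on the PLIER scale was 1.83, 1.55, 1.73 and 1.64 in WT cells at 12, 24, 36 and 48 h, and the RasGRP4-null medians were 1.55, 1.53, 1.61 and 1.70. The cytosolic medians were thus already at their level by 12 h. The mitochondrial median was 0.76, 0.57, 0.49 and 0.48 in WT cells and 0.58, 0.61, 0.62 and 0.46 in RasGRP4-null cells. At each single time point 17 cytosolic members were called higher than at 0 h. For the mitochondrial members 12, 11, 11 and 9 were called at 12, 24, 36 and 48 h, against 41.9%, 39.3%, 43.7% and 43.7% of all genes. The mitochondrial counts include genes that passed the filter only through LPS arrays.

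**Figure D4:**
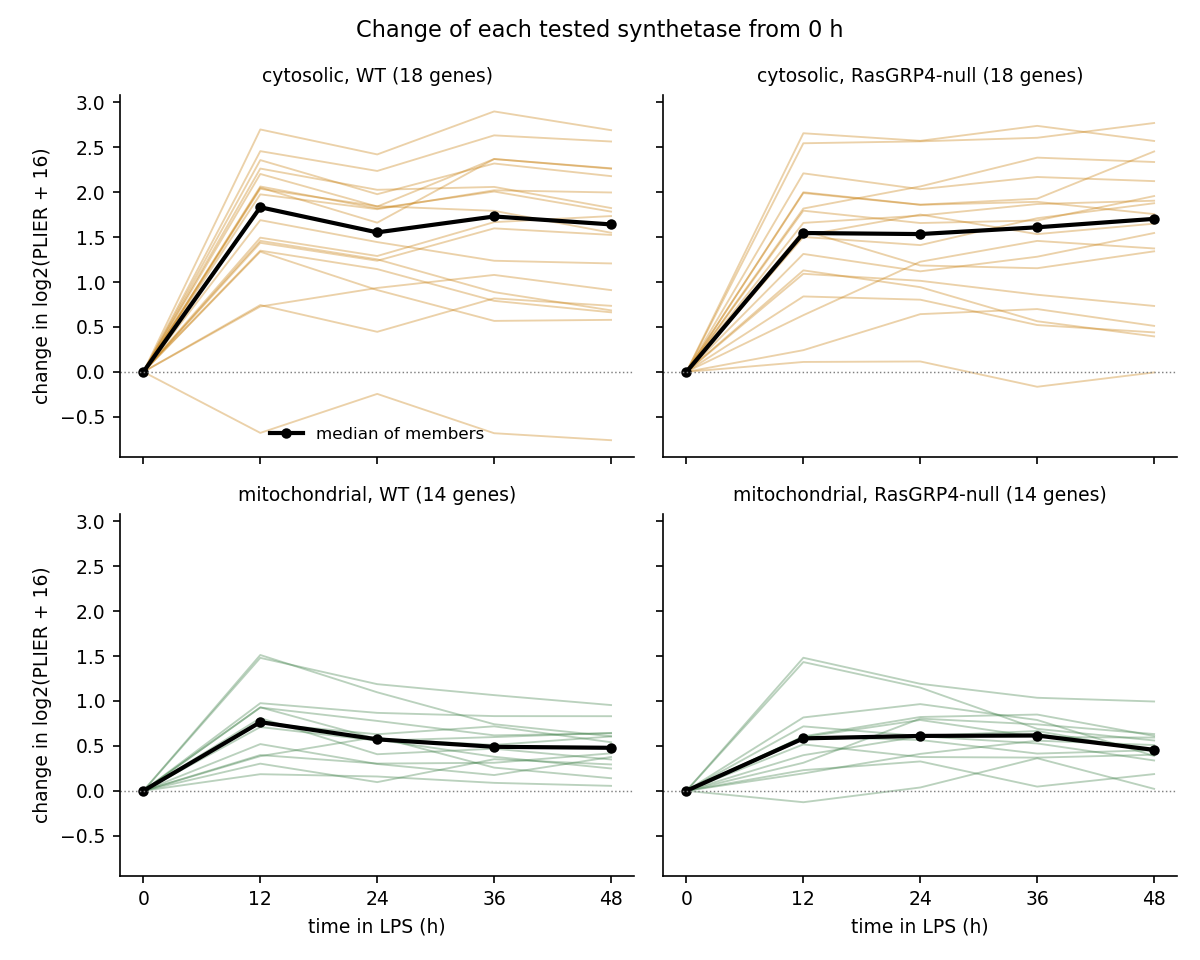
Change of each tested synthetase from the 0 h array of its genotype, in log2(PLIER + 16), by hour in LPS, with 1 thin line per gene and the median of the class in black. Cytosolic medians stay between 1.53 and 1.83 and mitochondrial medians between 0.46 and 0.76; after normalization to Gapdh the mitochondrial median over the LPS arrays is -0.27.

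Between early (12 and 24 h) and late (36 and 48 h) LPS, 7 members changed, 2 upward and 5 downward, with backgrounds of 16.7% and 9.87% over all genes. The share that rose was below its background and the share that fell above it. The late falls were those of Farsa and Yars2, which kept their calls in every alternative that was run, and of Dars, Hars and Rars2, which did not. The calls of Eprs, Sars and Rars2 were lost after normalization to Gapdh.

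Farsa, a subunit of the phenylalanyl-tRNA synthetase, fell from its peak at 12 h. WT cells had 71.5 before LPS and 205, 148, 114 and 115 afterwards, and RasGRP4-null cells had 79.6 and then 193, 168, 125 and 109.7. Early and late levels did not overlap in either genotype, and the late minus early difference was -0.55 (SE 0.092, adjusted p = 0.00157). The other subunit, Farsb, had -0.16 (adjusted p = 0.354), and its change from 0 h was larger (1.71 against 0.80 for Farsa). Yars2, with the values above, had -0.65 (SE 0.087, adjusted p = 5.00e-04).

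Dars, the aspartyl-tRNA synthetase, read 239 before LPS and 684, 591, 456 and 394 afterwards in WT cells, and 300.5 and then 550.4, 536, 438 and 413 in RasGRP4-null cells. Its late fall of -0.46 (SE 0.111, adjusted p = 0.0115) lost its call without the WT array of 24 h (adjusted p = 0.0597) or of 48 h (adjusted p = 0.0549). Hars, the histidyl-tRNA synthetase, read 166 before LPS and 449, 387, 299.7 and 273 afterwards in WT cells, and 207 and then 458, 433, 387 and 354 in RasGRP4-null cells. Its late fall of -0.39 (SE 0.096, adjusted p = 0.0124) lost its call without the WT arrays of 24, 36 or 48 h (adjusted p up to 0.0795). For both genes the levels at 36 and 48 h lay between the 0 h level and the 12 h peak. The late difference of Rars2 was -0.32 (SE 0.086, adjusted p = 0.0182), and its call was lost without any 1 of the 4 arrays of 36 and 48 h (adjusted p up to 0.0855).

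The late rises were less firm. Eprs, which encodes a fused enzyme for glutamate and proline, read 209 before LPS and 915, 694, 1145 and 1065 afterwards in WT cells, and 202 and then 857, 777, 815 and 1179.6 in RasGRP4-null cells. The late levels were above the early ones in WT cells and overlapped with them in RasGRP4-null cells. The difference of 0.36 (SE 0.116, adjusted p = 0.0407) lost its call without any of 6 arrays, all those of 12 h and 48 h and the WT arrays of 24 and 36 h (adjusted p up to 0.252). Sars, the seryl-tRNA synthetase, read 332 before LPS and 965, 835, 1089 and 1143 afterwards in WT cells, and 289 and then 847, 795, 982 and 1104 in RasGRP4-null cells. Late levels were above early ones in both genotypes. The difference of 0.32 (SE 0.088, adjusted p = 0.0199) lost its call without the WT array of 24 h or any 1 array of 36 or 48 h (adjusted p up to 0.0975). With the time points of the 3 RasGRP4-null arrays taken from their source names, the late calls of Eprs, Farsa, Hars and Yars2 were kept, and those of Sars (0.31, adjusted p = 0.143), Dars (-0.44, adjusted p = 0.0824) and Rars2 (-0.29, adjusted p = 0.153) were lost.

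**Figure D5:**
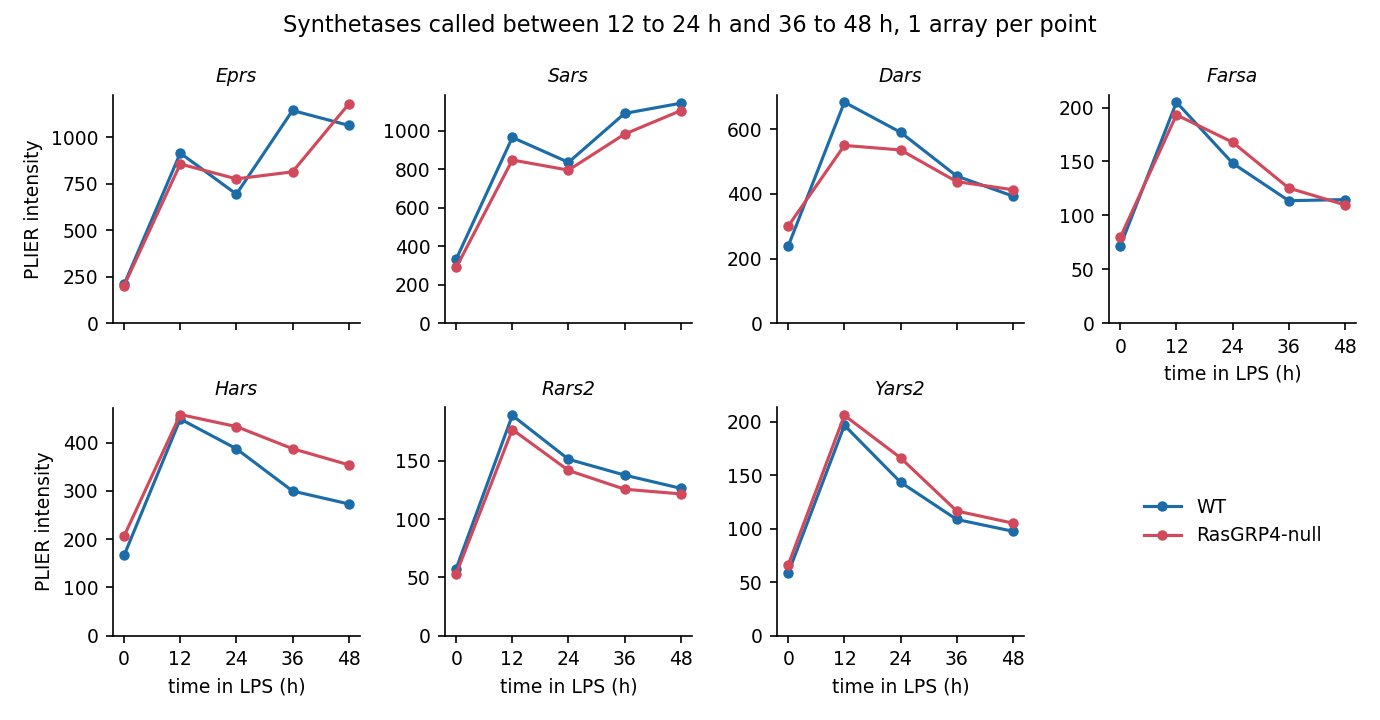
PLIER intensity by hour in LPS for the 7 synthetases called between 12 to 24 h and 36 to 48 h, 1 array per point, WT in blue and RasGRP4-null in red, axes from 0. Farsa and Yars2 peak at 12 h (205 and 197 in WT cells) and decline in both genotypes, while Sars ends at its highest level (1143 in WT and 1104 in RasGRP4-null cells).

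No synthetase was called between the genotypes. In limma 0 of 32 tested members differed between RasGRP4-null and WT cells over the 5 time points, where 0.152% of all genes were called higher and 0.0268% lower. The member differences lay between -0.19 (Fars2, SE 0.105) and 0.24 (Hars, SE 0.086), and Hars was the only 1 with an unadjusted p under 0.05 (adjusted p = 0.409). Hars was higher in RasGRP4-null cells at all 5 time points. The methods' t-test, paired by time point, called 4 of 32 members (12.5%) before adjustment, against 7.59% of all genes, and 0 after it. The LPS change did not pass the test for a difference between genotypes in any of the 32 members (0.134% of all genes called higher and 0.0537% lower). Aars, on its doubtful probe set, was the only member with an unadjusted p under 0.05 (0.61, SE 0.233, adjusted p = 0.548). With 1 array per genotype and time point these tests had 4 and 3 residual degrees of freedom, and a p above the threshold does not show that the genotypes were alike.

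Synthetases inside and outside the multi-synthetase complex were counted apart, with no test between them. All 7 tested members of the complex rose on the PLIER scale (median 1.87, from 0.86 for Dars to 2.55 for Iars), and 4 rose after normalization to Gapdh. Outside it 10 of 11 cytosolic members rose (median 1.59), and 6 rose and 2 fell after normalization to Gapdh. The shares of all genes were 48.2% higher on the PLIER scale, and 8.54% higher and 69.1% lower after normalization to Gapdh. The scaffold transcripts had smaller changes than the median of the complex, with 0.74 for Aimp1, 1.09 for Aimp2 and 1.21 for Eef1e1 on the PLIER scale, where all 3 rose, and no call after normalization to Gapdh. Aimp2 and Eef1e1 fell between early and late LPS (-0.62, adjusted p = 0.00128, and -1.05, adjusted p = 1.04e-04), and Aimp1 did not pass that test (0.25, adjusted p = 0.121).

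Other genes that handle tRNA moved in both directions. Of 7 tested factors for charging, editing and export 5 rose and 1 fell on the PLIER scale, and 2 rose and 3 fell after normalization to Gapdh. For all genes these shares were 48.2% and 21.5% on the PLIER scale, and 8.54% and 69.1% after normalization to Gapdh. Xpot, the exportin that carries tRNA out of the nucleus, rose by 2.14 (adjusted p = 7.00e-08), and Trnt1, which adds the CCA end to tRNA, by 1.41 (adjusted p = 8.83e-07). Sepsecs, which completes selenocysteinyl-tRNA, rose by 0.81 on the PLIER scale alone (-0.04 after normalization to Gapdh). It was below 50 on both 0 h arrays, so that the filter favoured its rise. The gene that fell was Prorsd1 (-0.32, adjusted p = 0.0184), named here after its value was seen.

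Most of the other listed genes of mitochondrial translation rose on the PLIER scale. After normalization to Gapdh the medians were -0.09 for the amidotransferase and formyltransferase list and -0.04 for the translation factors. The median of all genes on that scale was -0.70. Of all genes 48.2% rose on the PLIER scale, and 8.54% rose and 69.1% fell after normalization to Gapdh. Mitochondria lack a glutaminyl-tRNA synthetase and make Gln-tRNA with an amidotransferase. Its subunits Gatc (1.61), Qrsl1 (0.85) and Pet112 rose, as did the Met-tRNA formyltransferase, 4 of 4 tested genes, and after normalization to Gapdh 1 rose and 1 fell. Pet112 was at background on both 0 h arrays, so that its mean rise over the LPS arrays was at least 1.64-fold. Qrsl1 was at background on the WT array of 0 h. Both genes, and the translation factors Mtrf1l and Mtif3 (named for its 0 h level), were below 50 on both 0 h arrays. The filter thus favoured their rises. Of 8 tested mitochondrial translation factors 7 rose (median 0.86), among them Gfm2 (1.24), the elongation factor Gfm1 (1.17) and the release factor Mtrf1l (0.90), while after normalization to Gapdh none rose and 1 fell. Cytosolic elongation factors had a smaller median (0.44), with 3 of 4 higher on the PLIER scale, Eif5a (1.13), Eef1d (0.53) and Eef2 (0.35), and 3 lower after normalization to Gapdh.

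The transcripts of the ATF4 pathway were measured on the same arrays. Atf4 itself was not called on the PLIER scale (0.14, adjusted p = 0.295) and fell after normalization to Gapdh (-0.92, adjusted p = 1.56e-04). ATF4 is controlled largely at the level of translation, which these arrays do not measure. Among Atf4, the eIF2α kinases and their partners 4 of 8 rose and 3 fell on the PLIER scale, and 2 rose and 5 fell after normalization to Gapdh. Of all genes 48.2% rose and 21.5% fell on the PLIER scale, and 8.54% rose and 69.1% fell after normalization to Gapdh. Eif2ak2, the kinase PKR, rose most (2.72, adjusted p = 5.95e-09), ahead of Cebpg (1.53), a partner of ATF4, and Eif2s1 (1.29), the gene of eIF2α. The genes that fell on the PLIER scale were Eif2ak3 (-0.74), Cebpb (-0.53) and Eif2ak4 (-0.36), named after their values were seen.

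The listed ATF4 targets other than synthetases had a larger median change than either class of synthetases. On the PLIER scale 16 of 18 rose and 1 fell (Cebpb), with a median of 2.50. With the 8 genes at background on both 0 h arrays set to their bounds the median was 2.14. After normalization to Gapdh 14 rose and 2 fell. These 8 genes and Atf5, named for its 0 h level, were below 50 on both 0 h arrays. The filter thus favoured their rises. Of all genes 48.2% rose and 21.5% fell on the PLIER scale, and 8.54% rose and 69.1% fell after normalization to Gapdh. Asns, asparagine synthetase, rose by 4.28 (SE 0.108, adjusted p = 1.56e-10), from 14.5 and 19.4 at 0 h, both background, to 443 to 835 in LPS. Its mean rise over the LPS arrays was at least 17.9-fold, measured against the background level at 0 h. By the same mean Chac1, which degrades glutathione, rose at least 7.33-fold, and Cth, which makes cysteine, at least 9.16-fold, both from background. Between early and late LPS 14 of these 18 targets rose and none fell (median 0.61), against 16.7% and 9.87% of all genes. The same counts held after normalization to Gapdh (11.2% and 6.63% of all genes). The targets that rose late included Ddit3 and Cebpb, named after their values were seen, which had not risen from 0 h (-0.28, adjusted p = 0.24, and -0.53). Of the cytosolic synthetases 2 of 18 were higher late and 3 lower, with a median of 0.11. No test compared the lists.

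Genes induced by IFN-γ and genes of proliferation rose as well. For comparison, 48.2% of all genes rose and 21.5% fell on the PLIER scale, and 8.54% rose and 69.1% fell after normalization to Gapdh. For 2 of 16 IFN-γ induced genes both 0 h arrays were at background. Of these 16 genes 14 rose and 2 fell (Cxcl9 and Ciita, named after their values were seen) on the PLIER scale. The median was 1.73, or 1.62 with the 2 genes at background set to their bounds. After normalization to Gapdh 10 rose and 2 fell. Iigp1, Cxcl10 (named for its 0 h level) and the 2 genes at background were below 50 on both 0 h arrays. The filter thus favoured their rises. Gbp2 (3.86) and Igtp (3.78), both interferon-induced GTPases, led, and Iigp1, at background on the WT array of 0 h, followed with 3.52. All 13 tested genes of proliferation rose (median 1.80), and 10 rose after normalization to Gapdh. Mcm5 (2.13), a subunit of the replicative helicase, and Tyms (1.88), thymidylate synthase, were among those with the smallest p-values. Tyms and Bub1 (named for its 0 h level) were below 50 on both 0 h arrays, so that the filter favoured their rises.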

How the data were processed

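RNA of 10 CD117+ splenocyte preparations was hybridized to Affymetrix MoGene-2_0-st arrays. The authors computed the deposited PLIER intensities with Affymetrix Expression Console (PLIER, PM-BG and Sketch, per the file headers), and a second intensity table deposited by the authors multiplies each array by 1 factor that scales Gapdh (1 to 2.41, checked to within a rounding difference of 0.5). Gene symbols are those of the deposited annotation. A workbook copy with 20 per-sample columns repeats these values and was not used. The number of arrays sets the precision.

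The annotation gives 1 symbol to 26660 of the 41345 probe sets, more than 1 to 3066 and no symbol to 11619. The brightest probe set with 1 symbol stood for its gene, and the test took the 11178 genes that reached a PLIER intensity of 50 on 2 or more arrays. The model was fitted to log2(PLIER + 16) in limma 3.58.1 (R 4.3.3). Its terms were genotype and time, which left 4 residual degrees of freedom, and genotype by LPS for the interaction, which left 3. Tests were two-sided, with Benjamini-Hochberg adjustment over all genes and a threshold of 0.05. The fit was also run on simulated data with independent errors, which cannot speak to time points that share the same cells. Values on every array are given for the 4 largest and 2 lowest LPS changes of each class, for members called late or by genotype, and for Wars and Wars2; of each other list at most 3 genes with the smallest p, Atf4, Asns and the scaffolds are named, apart from exceptions named as such. The members and lists were chosen with earlier results of these data known. Promoters came from RefSeq (GRCm38.p6). Some promoter matches are not reported here. Alternatives were GAPDH-normalized values, quantile normalization, a pseudocount of 1 or 64, the filter left out or set at 100, the mean of all probe sets, an intensity trend, each array left out, the methods' rule (over 1% of Gapdh and 3.6-fold) and their t-test. The fits with shared probe sets and with source-name time points were added after seeing the data, and so was the choice of the Gapdh probe set for the rule. Tables and figures were made in Python 3.11.15 with matplotlib 3.10.9, pandas 2.3.3 and numpy 2.4.6.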

Additional observations from a re-analysis of the deposited data

How the results depend on the processing

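The LPS changes of single members kept their direction and their side of the threshold in 589 of 633 comparisons with an alternative. Of the 18 that turned, 15 came from the GAPDH-normalized scale, whose construction lowers every LPS array against 0 h. There the changes were -0.17 for Dars, -0.13 for Farsa, -0.054 for Hars and -0.43 for Vars, and among mitochondrial members -0.25 for Aars2, -0.87 for Cars2, -0.39 for Ears2, -0.55 for Fars2, -0.45 for Hars2, -0.26 for Iars2, -0.28 for Lars2, -0.26 for Nars2, -0.44 for Sars2, -0.21 for Tars2 and -0.63 for Vars2. The others were Cars2 under quantile normalization (-0.10) and Aars with shared probe sets (2.28) or without the WT array of 0 h (0.014). Aars ranged from -0.592 to 0.014 with 1 array left out. On the GAPDH-normalized scale 10 cytosolic members rose and 2 fell, 0 mitochondrial members rose and 6 fell, and 0 members rose late. Quantile normalization called 1 cytosolic member lower. A filter at 100 left fewer mitochondrial members to test, of which 6 rose. The methods' rule, applied to both genotypes, called 0 members of either class higher. It named Yars in WT cells at 36 and 48 h and Cars in RasGRP4-null cells at 12, 36 and 48 h as higher, and Aars in WT cells at 12 h as lower. The number of late rises, 2, was 1 with a pseudocount of 1, 4 with 64, 1 with no filter and 1 with time points by source name, which left 3 late falls in place of 5. The difference of the class medians, 1.08, was 0.91 on the GAPDH-normalized scale, 0.90 under quantile normalization, 0.99 with a pseudocount of 1, 0.96 with the filter at 100 and 1.22 with shared probe sets. The cause of these moves was not tested. The Gapdh factor of an array shifts both classes alike, apart from the constant added before taking log2 and from rounding. The value of 0.91 is thus no independent measure of the difference. With 1 array left out, 17 cytosolic members rose each time and 0 to 1 fell, 9 to 13 mitochondrial members rose and 0 fell, the difference of medians was 1.03 to 1.11, 0 to 3 members rose late and 2 to 5 fell, and 0 were called by genotype or interaction. The interaction could not be fitted without a 0 h array. A condition has 1 array, so the spread rests on the genotypes. Dim mitochondrial members near background limit their folds. The methods' t-test paired the genotypes by time point and called 0 members after adjustment. Beyond that pairing, no paired analysis was possible because each condition has 1 array and replicate numbers pair nothing.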
